A study of Mus musculus with 34 samples.

Results

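The 39 genes described here carry out or control the synthesis of cholesterol and fatty acids, and they were taken as a list by gene symbol from the deposited count tables of CAD cells, a mouse neuroblastoma line of catecholaminergic type that puts out neurites when serum is taken away. By role they are 7 genes of the mevalonate pathway, 11 of the sterol pathway from squalene to cholesterol, 4 that control or encode sterol regulatory element-binding proteins (SREBPs), 4 of sterol transport and uptake, 4 targets of liver X receptors (LXRs) and 9 of fatty acid synthesis. Among 37310 gene identifiers, 38 of the 39 were matched, Hmgcs1 had no matching identifier and is given no value, and Abcg1 stayed under the low-count limit in every experiment, so 37 were tested.

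The RNA came from 28 polyA libraries in 3 experiments. The first held mir-138 DKO and WT cells, each 1 day without serum and in serum, with 2 libraries a group. The second held WT cells 4 days without serum and in serum, with 3 libraries a group. The third held mir-138 DKO cells transfected at 3 nM with a miR-138 or a miR-137 mimic, or with pUC19 plasmid DNA as the control, each 2 days without serum and in serum, and DKO cells in serum for which no transfection is named, with 2 libraries a group. Small RNA was sequenced in WT cells 4 days without serum and in serum, with 3 libraries a group. Cells in serum had 10% fetal bovine serum, and in the transfected cells serum was removed 48 h after transfection. The labels do not say whether the DKO line is 1 clone or whether replicates were separate cultures, so p-values measure only the spread between these libraries, which may be technical. The titles of the 4-day libraries say WT while their genotype field says DKO, and they are treated as WT. Titles of the untransfected libraries read DKO_2, and those of the second experiment WT_2, with no meaning given for the 2.

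Animal cells make cholesterol from acetyl-CoA through mevalonate, squalene and lanosterol, and the same acetyl-CoA feeds fatty acid synthesis. When sterol in the endoplasmic reticulum is low, the escort protein Scap carries SREBPs to the Golgi, where they are cut and released to the nucleus, and Insig1 holds the complex back when sterol is plentiful. SREBP-2, from Srebf2, acts mostly on sterol genes and SREBP-1, from Srebf1, mostly on fatty acid genes, together with the factor NF-Y, which reads CCAAT. LXRs are switched on by oxysterols and raise sterol efflux genes such as Abca1. Serum is an outside source of lipoprotein cholesterol and fatty acids for cells in culture.

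Promoters of 5 members, sterol genes and Insig1 of SREBP control, are printed because they show CCAAT, a sequence shared by most members with a promoter found. Lss, Msmo1, Tm7sf2 and Insig1 rose at least 2-fold in each of the 6 serum withdrawals below, and Ebp in none. Each runs 5′ to 3′ on the gene's own strand from 250 bases before to 50 after the RefSeq start site. Capitals mark CCAAT, or ATTGG where the motif lies on the other strand.
Lss, GRCm38.p6, chr10:76531355-76531654, plus strand: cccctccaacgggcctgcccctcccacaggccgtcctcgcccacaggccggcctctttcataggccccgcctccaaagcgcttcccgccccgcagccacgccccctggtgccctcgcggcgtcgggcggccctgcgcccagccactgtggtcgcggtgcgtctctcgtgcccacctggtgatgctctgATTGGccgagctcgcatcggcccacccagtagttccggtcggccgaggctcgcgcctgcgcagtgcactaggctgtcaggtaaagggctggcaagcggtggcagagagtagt
Msmo1, GRCm38.p6, chr8:64733529-64733828, minus strand: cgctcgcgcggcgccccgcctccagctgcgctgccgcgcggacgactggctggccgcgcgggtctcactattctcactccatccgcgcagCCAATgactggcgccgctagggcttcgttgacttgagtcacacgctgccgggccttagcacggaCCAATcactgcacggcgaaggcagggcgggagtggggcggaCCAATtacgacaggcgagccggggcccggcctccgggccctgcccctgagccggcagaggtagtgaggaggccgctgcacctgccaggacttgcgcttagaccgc
Tm7sf2, GRCm38.p6, chr19:6067801-6068100, minus strand: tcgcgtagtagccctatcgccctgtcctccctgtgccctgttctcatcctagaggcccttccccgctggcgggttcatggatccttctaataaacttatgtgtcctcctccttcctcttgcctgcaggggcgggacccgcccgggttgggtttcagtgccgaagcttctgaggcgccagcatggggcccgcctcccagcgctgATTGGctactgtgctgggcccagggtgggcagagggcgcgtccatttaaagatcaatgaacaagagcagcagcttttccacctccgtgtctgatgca
Insig1, GRCm38.p6, chr5:28071162-28071461, plus strand: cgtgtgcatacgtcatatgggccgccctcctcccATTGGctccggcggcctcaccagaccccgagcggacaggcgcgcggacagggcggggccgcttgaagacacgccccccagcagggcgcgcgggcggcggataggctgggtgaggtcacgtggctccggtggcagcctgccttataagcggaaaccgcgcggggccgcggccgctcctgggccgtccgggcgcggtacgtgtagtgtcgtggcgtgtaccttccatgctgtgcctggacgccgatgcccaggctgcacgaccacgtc
Ebp, GRCm38.p6, chrX:8193463-8193762, minus strand: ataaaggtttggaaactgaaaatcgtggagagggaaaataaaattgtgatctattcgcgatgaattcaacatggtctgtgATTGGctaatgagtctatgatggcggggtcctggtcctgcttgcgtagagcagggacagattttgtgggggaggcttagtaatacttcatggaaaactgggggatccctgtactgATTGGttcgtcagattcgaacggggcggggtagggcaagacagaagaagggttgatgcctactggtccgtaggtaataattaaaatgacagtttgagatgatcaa

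RefSeq promoters on GRCm38.p6 were found for 29 of the 39 genes, and where a gene had several, a match in any of them counted. CCAAT on either strand was found for 23 of the 29 (79.3%), against 11096 of 27025 genes in the table (41.1%). Of the 15 mevalonate and sterol genes with a promoter, 14 held it (93.3%). The GC box GGGCGG, read by Sp1, was in 25 of the 29 (86.2%), in 14 of those 15 (93.3%) and in 38.2% of all genes. None of the 50 CCAAT matches in members overlapped a GC box. The sterol element TCACNCCAC, searched on both strands, was found in 1 of the 29, Hmgcs1, and in 1.44% of all genes, so in most members these letters are not in this window. Ebp holds 2 CCAAT matches, as many as Mvd and Idi1, whose levels rose at least 2-fold in each withdrawal. These counts describe letters, not binding.

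The assigned reads of a library numbered between 22359075 and 41505181 for experiment 1, between 19900317 and 28631969 for experiment 2, and between 12740836 and 25582125 for experiment 3. Levels are counts per 1000000 reads (CPM), scaled within each experiment, so levels are not compared between experiments. The 2 libraries of DKO-labelled cells in serum in the first experiment stood furthest apart of the 2-library RNA groups. Of the deleted miRNA's hairpin genes, Mir138-2 had 0 reads in every RNA library and Mir138-1 had 273 and 343 reads in DKO-labelled cells at day 1 and 242 and 217 in serum, against 15 and 37 in WT cells at day 1 and 18 and 18 in serum, and 15 to 43 in experiment 3. That is the opposite of what the label leads one to look for. PolyA libraries do not measure mature miRNA, and gene counts cannot settle whether a deletion leaves a longer transcript. The genotype was not tested here, so these cells are called DKO-labelled. In CAD markers, Hand2 and Tubb3 were read in every experiment, while in experiment 3 Chga reached at most 0.576 CPM and Snap25 2.74 CPM, and Th summed to 231, 135 and 61 reads over the libraries of experiments 1, 2 and 3. Fibroblast markers summed to 1.21 to 39.1 CPM over 7 genes, given by group beside the withdrawal results, with Col3a1 at 0 throughout, and glial markers to 1.26 to 11 CPM over 8 genes.

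Removal of serum raised nearly the whole synthesis pathway in each of the 6 comparisons of it. Their compared groups share no libraries, but comparisons of the same experiment share an estimate of spread and are not separate tests. Of 37 members, 28 rose past an adjusted p of 0.05 in all 6, and 19 rose at least 2-fold in all 6. Of the 28, 27 did so whichever library of the compared groups was left out or setting changed. In DKO-labelled cells after 1 day 34 rose and 2 fell, against 19.9% and 20.4% of all genes tested. In WT cells after 1 day 32 rose and 1 fell, against 20.4% and 20.3%. In WT cells after 4 days 29 rose and 1 fell, against 36.2% and 34.7%. After 2 days 35 rose and 2 fell with the miR-138 mimic (31.1% and 32.2% of all genes), 34 rose and 1 fell with the miR-137 mimic (33.2% and 32.6%), and 35 rose and 1 fell with pUC19 DNA (28.4% and 31.3%). Rises of at least 2-fold numbered 22 in DKO-labelled cells at day 1 (5.83% of all genes), 21 in WT cells at day 1 (4.69%), 23 in WT cells at day 4 (20.3%), 24 with the miR-138 mimic (9.53%), 26 with the miR-137 mimic (11.7%) and 25 with pUC19 DNA (7.93%). The members' median log2 fold change was 1.26, 1.32, 1.28, 1.18, 1.58 and 1.26 in that order, and that of all genes tested lay between -0.02 and 0.04. Tests throughout are edgeR's quasi-likelihood test, with p-values adjusted by Benjamini-Hochberg across every gene tested.

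**Figure D1:**
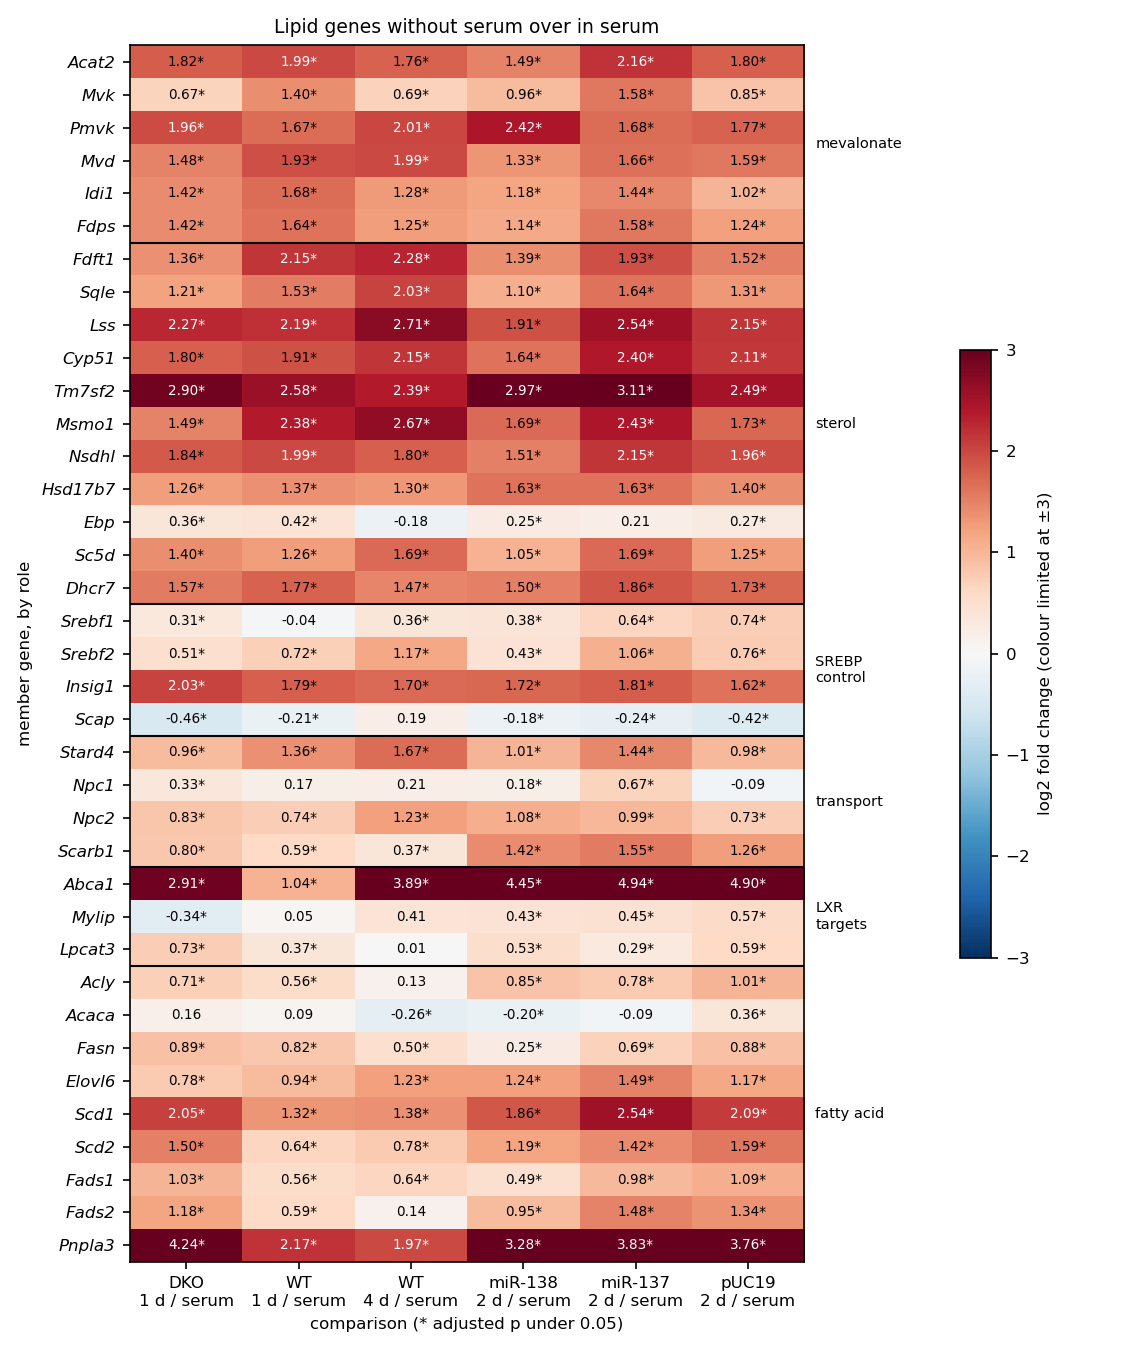
Log2 fold change without serum over in serum for 37 member genes (down the page, by role) in 6 comparisons (columns), with an asterisk where the adjusted p is under 0.05. Rows of mevalonate and sterol genes are red in each column apart from Ebp, which lies between -0.18 and 0.42, and Scap is pale or blue.

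Each of the 6 measured mevalonate genes rose in all 6 withdrawals, and the calls held in every alternative setting. Pmvk, which makes mevalonate diphosphate, rose by 1.67 to 2.42 on the log2 scale, the most with the miR-138 mimic. Its level there was 321 and 401 CPM without serum, against 66.7 and 68.2 CPM in serum. In WT cells it was 376, 248 and 281 CPM at day 4, against 70.7, 74.5 and 79.9 CPM in serum, so the 4-day libraries lay well above the serum ones and varied among themselves. Acat2, which joins 2 acetyl-CoA, rose by 1.49 to 2.16, but it has near-identical relatives whose reads could have been assigned among them or dropped. Mvd, the decarboxylase that makes isopentenyl diphosphate, rose by 1.33 to 1.99. Mvd read 139 and 125 CPM in WT cells at day 1, against 33.9 and 35.4 CPM in serum. Fdps, which makes farnesyl diphosphate, rose by 1.14 to 1.64, and Idi1, the isomerase before it, by 1.02 to 1.68. Idi1 was low in the third experiment, at 2.1 to 9.4 CPM. Mvk, mevalonate kinase, moved least, by 0.67 to 1.58, and at least 2-fold in 2 of the 6.

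Of the 11 sterol genes, 10 rose at least 2-fold in all 6 withdrawals. Tm7sf2, a sterol C14 reductase, had the largest rise of them in 5 of the 6, by 2.39 to 3.11. It read 78.6 and 76.1 CPM in DKO-labelled cells at day 1, against 11.4 and 9.2 CPM in serum. With the miR-137 mimic it read 52.2 and 58.4 CPM without serum, against 6.0 and 6.8 CPM in serum. The groups were far apart in both. Lss, lanosterol synthase, which closes the sterol rings, had the largest rise at day 4 in WT cells, with 712, 705 and 720 CPM, against 109, 106 and 111 CPM in serum (log2 fold change 2.71 ± 0.07 SE, adjusted p = 3.79e-12). It rose by 1.91 to 2.54 in the other 5. Msmo1, which removes the C4 methyl groups, read 369, 447 and 394 CPM at day 4, against 61.1, 63.1 and 66.3 CPM in serum (2.67 ± 0.09), and its rise was smallest in DKO-labelled cells at day 1, 1.49 ± 0.10. Cyp51, the lanosterol demethylase, rose by 1.64 to 2.40, Fdft1, squalene synthase, by 1.36 to 2.28, Nsdhl by 1.51 to 2.15 and Dhcr7, the last reductase of one branch, by 1.47 to 1.86. Sqle, squalene epoxidase, rose by 1.1 to 2.03, Sc5d by 1.05 to 1.69 and Hsd17b7 by 1.26 to 1.63.

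Ebp, the sterol isomerase, stood apart from its neighbours in the pathway. Its log2 fold change lay between -0.18 and 0.42. It passed the threshold in 4 of the 6 comparisons, and each of these 4 calls was lost when 1 library was left out (adjusted p up to 0.105 without replicate 1 or 2 at day 1 or serum replicate 1 in DKO-labelled cells, up to 0.133 without day-1 replicate 1 or serum replicate 2 in WT cells, up to 0.104 without 2-day or serum replicate 2 with the miR-138 mimic, and up to 0.249 without 2-day replicate 2 or serum replicate 1 with pUC19 DNA). In WT cells at day 4 it read 21.6, 20.8 and 24.1 CPM, against 20.3, 24.4 and 30.9 CPM in serum, and the groups overlapped.

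The genes of SREBP control did not move alike. Insig1 rose by 1.62 to 2.03 in all 6 withdrawals, for instance to 262 and 267 CPM in DKO-labelled cells at day 1, against 71.8 and 57.3 CPM in serum. Srebf2 rose in all 6 by less, 0.43 to 1.17. It read 976, 960 and 1040 CPM in WT cells at day 4, against 453, 413 and 458 CPM in serum, its largest rise, and 547 and 603 CPM with the miR-138 mimic without serum, against 430 and 424 CPM in serum, its smallest. Srebf1 lay between -0.04 and 0.74 and passed the threshold in 5 of 6, but its calls in DKO-labelled cells at day 1 (0.31, adjusted p = 0.17 without replicate 1 of the day-1 group) and in WT cells at day 4 (0.36, adjusted p up to 0.0772 without serum replicate 1 or 2) each rested on single libraries. Scap went the other way. It fell in 5 of 6, with a log2 fold change between -0.46 and 0.19, and the falls that held in every setting were in DKO-labelled cells (86.0 and 76.2 CPM at day 1, against 117 and 106 CPM in serum) and with pUC19 DNA (70.9 and 76.7 CPM at day 2, against 92.3 and 105 CPM in serum).

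**Figure D2:**
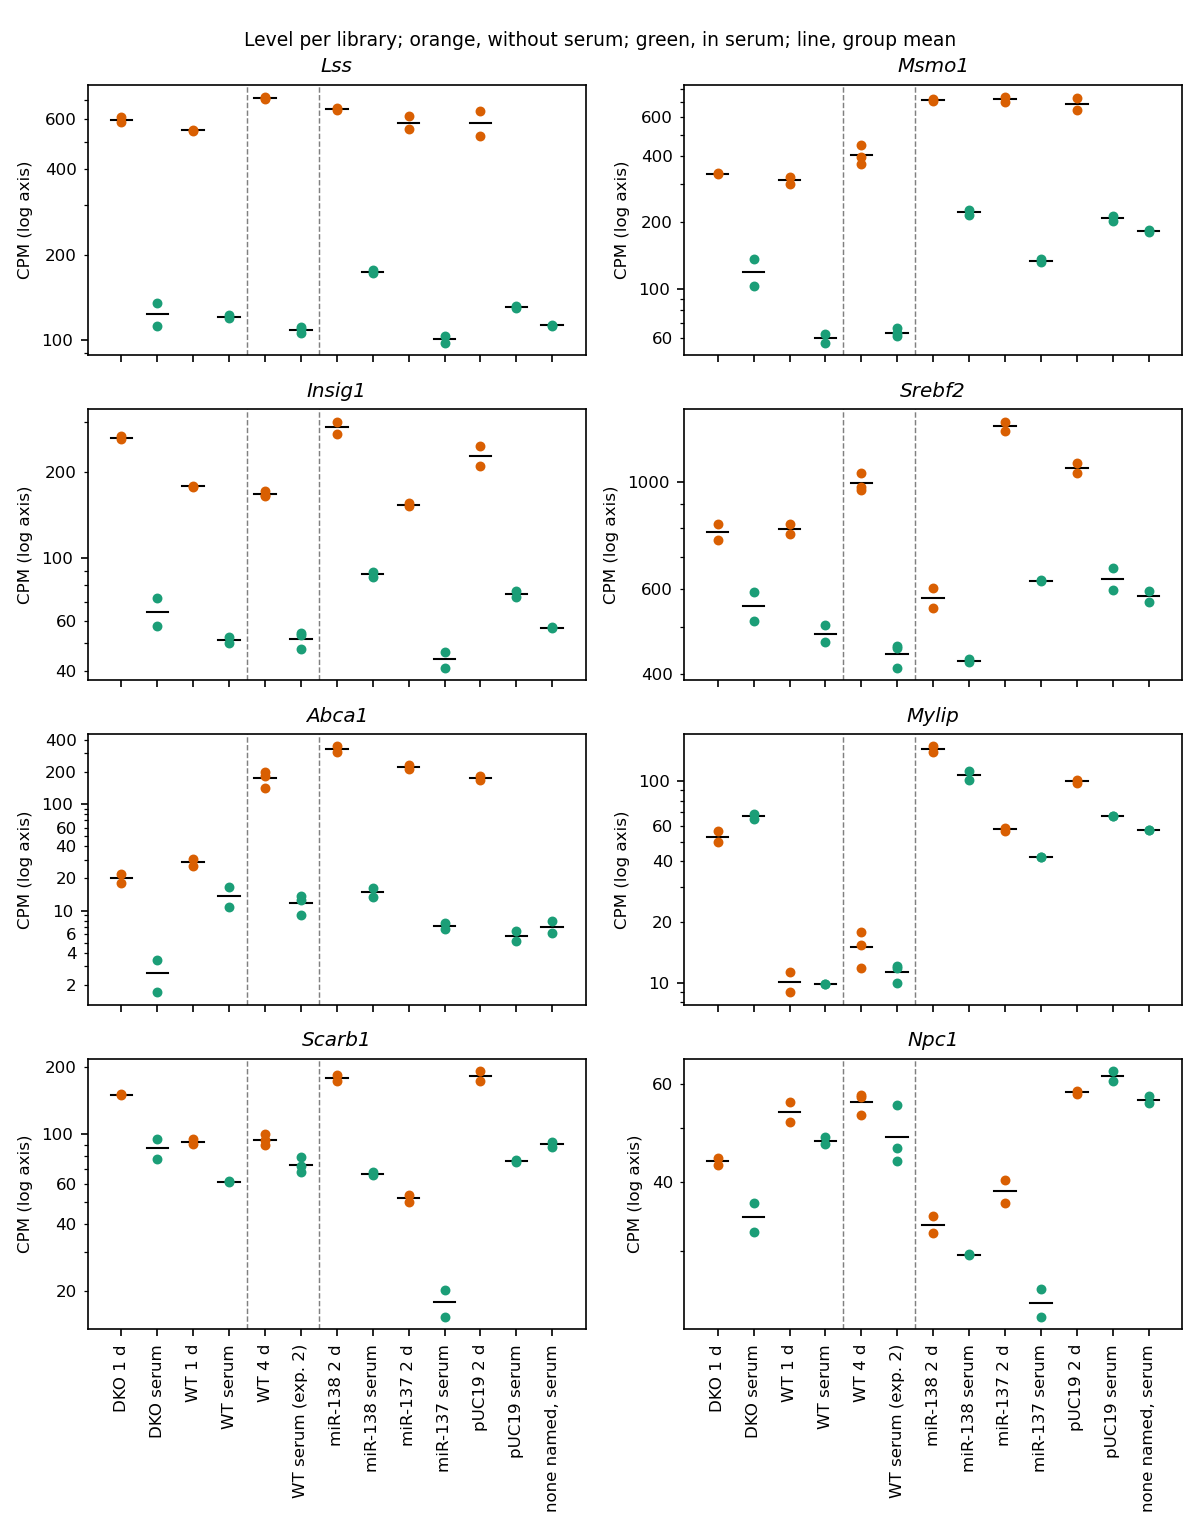
Level in CPM on a log axis for 8 member genes (panels), with 1 point per library and a line at the mean of each of 13 groups; dashed lines part the experiments, whose levels are scaled apart. Lss, Msmo1 and Insig1 are higher without serum (orange) than in serum (green) in each pair, Mylip differs more by genotype than by serum, and Scarb1 is lowest with the miR-137 mimic.

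In transport, Stard4, which carries sterol through the cytosol, rose by 0.96 to 1.67, Npc2, the soluble lysosomal sterol carrier, by 0.73 to 1.23, and Scarb1, the lipoprotein receptor SR-BI, by 0.37 to 1.55, each in all 6 withdrawals. Npc1, the membrane partner of Npc2, did not follow it. It lay between -0.09 and 0.67, and the only one of its 3 calls that held in every setting was with the miR-137 mimic, where it read 36.6 and 40.3 CPM without serum, against 22.8 and 25.6 CPM in serum.

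Among LXR targets, Abca1, which exports cholesterol to apolipoproteins, gave the largest change of any member in 4 of the 6 withdrawals. With the miR-138 mimic it read 347 and 305 CPM at day 2, against 13.5 and 16.4 CPM in serum (4.45 ± 0.10), and with the miR-137 mimic 213 and 230 CPM, against 6.7 and 7.7 CPM in serum (4.94 ± 0.12). With pUC19 DNA it read 168 and 184 CPM, against 6.4 and 5.2 CPM in serum (4.90 ± 0.12, adjusted p = 1.02e-16). At day 4 WT cells read 140, 200 and 184 CPM, against 13.7, 9.0 and 12.7 CPM in serum (3.89 ± 0.16). The rise was smaller at day 1. It was 2.91 ± 0.27 in DKO-labelled cells, and 1.04 ± 0.23 in WT cells, where 30.4 and 26.2 CPM stood against 16.7 and 10.9 CPM in serum and the call was lost without serum replicate 2 (adjusted p = 0.0606). Times differ together with experiment and transfection here, so time cannot be told apart from them. The other measured LXR targets changed less than Abca1. Mylip, a ubiquitin ligase that lowers lipoprotein receptors, lay between -0.34 and 0.57. It rose past the threshold in 3 of the 6, the transfected groups, in calls that held, and fell in 1, a call that did not. Lpcat3, a phospholipid acyltransferase, lay between 0.01 and 0.73 and rose past the threshold in 5 of the 6, with 4 of these calls held in every setting. Abcg1 had at most 0.3 CPM in any library.

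Of 9 fatty acid genes, 6 rose in all 6 withdrawals. Pnpla3, a lipase of lipid droplets, rose the most, by 1.97 to 4.24, from a low level. It read 19.8 and 15.8 CPM in DKO-labelled cells at day 1, against 1.1 and 0.7 CPM in serum. Scd1, the stearoyl-CoA desaturase, rose by 1.32 to 2.54, and its relative Scd2 by 0.64 to 1.59; the pair are similar in sequence, and reads could have been assigned to either or dropped. Elovl6, the elongase before it, rose by 0.78 to 1.49, and Fads1, a polyunsaturated fatty acid desaturase, by 0.49 to 1.09. The early enzymes moved less. Fasn, the synthase, rose by 0.25 to 0.89, and Acly, which makes cytosolic acetyl-CoA, by 0.56 to 1.01 in 5 of 6 (0.13, adjusted p = 0.108, in WT cells at day 4). Acaca, the carboxylase that makes malonyl-CoA, lay between -0.26 and 0.36, and it rose with pUC19 DNA. Its fall at day 4 was lost without serum replicate 1 or 3 or 4-day replicate 1 (adjusted p up to 0.0875). Its fall with the miR-138 mimic was lost with RLE scaling, with DESeq2, and without 2-day or serum replicate 2. Fads2 rose in 5 of 6 and was 0.14 (adjusted p = 0.109) at day 4.

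Other genes of these pathways were counted from wider lists, and their counts are read against the shares of all genes given above, 19.9% to 36.2% rising and 20.3% to 34.7% falling in a comparison. Of 13 genes that use farnesyl diphosphate for ubiquinone, dolichol and protein prenylation, none rose in 5 of the 6 withdrawals, 2 rose with the miR-137 mimic, and 3, 3, 7, 7, 8 and 8 fell in DKO-labelled cells at day 1, WT cells at day 1, WT cells at day 4 and with the miR-138 mimic, the miR-137 mimic and pUC19 DNA. The falls at day 1 were near the share of all genes and the later ones above it. Pdss1, which makes the ubiquinone side chain, led the falls in each, with -0.89 ± 0.15 in WT cells at day 1 and -2.29 ± 0.14 at day 4. Of 13 further genes of SREBP regulation, 1, 3, 8, 5, 3 and 4 rose and 2, 2, 2, 4, 4 and 2 fell in the same order, so that rises were above the share of all genes at day 4 and near or under it otherwise, with Erlin1 falling in each (-1.20 ± 0.13 in WT cells at day 4), Insig2, the second Insig, at 1.52 ± 0.11 and Erlin2 at 1.5 ± 0.08 at day 4. Of 15 tested sterol-handling genes in the first 2 experiments and 14 in the third, 5, 5, 12, 8, 11 and 8 rose and 1 fell in each. The rises were above the share of all genes, by most at day 4 and with the miR-137 mimic. Aacs, which feeds acetoacetate into lipid synthesis, rose by 1.09 to 2.33, and the endocytic receptor Lrp1 rose by 3.17 ± 0.15 at day 4, while Tmem97 fell by 2.13 ± 0.10 at day 4.

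Of the wider fatty acid list, 12 and 10 of 22 rose in DKO-labelled and WT cells at day 1, 10 of 21 in WT cells at day 4, and 10, 11 and 12 of 22 with the miR-138 mimic, the miR-137 mimic and pUC19 DNA, while 3, 4, 6, 6, 6 and 6 fell. The rises were above the share of all genes, by least at day 4 and with the miR-138 or miR-137 mimic, and the falls near or under it. Lpin1, a phosphatidate phosphatase, rose by 1.63 to 3.08, and Acss2, which makes acetyl-CoA from acetate, by 2.37 ± 0.12 at day 4. Fatty acid oxidation genes had 7, 7, 9, 10, 7 and 9 rises and 3, 0, 2, 1, 2 and 2 falls of 13 tested (14 at day 4). Their rises were above the share of all genes. Their falls were under it, apart from DKO-labelled cells at day 1, where they were near it. Cpt1a, the carnitine palmitoyltransferase of the mitochondrial outer membrane, was at 1.28 ± 0.08 at day 4. Proliferation markers fell over the same comparisons. Their sum over 10 genes was 65.7 to 119 CPM in WT cells at day 4, against 3480 to 3590 CPM in serum, and 10, 10, 10, 7, 10 and 9 of the 10 fell in the same order, while the CAD list summed to 9280 to 11600 CPM at day 4, against 3380 to 3460 CPM in serum. That sum was mostly Chgb, at up to 8640 CPM, and of the 12 CAD markers 6 rose, 3 fell and 3 did not pass the threshold at day 4. Fibroblast markers, though low, had a higher sum without serum in each pair. They summed to 9.8 to 11.5 CPM in WT cells at day 4, against 1.21 to 1.92 CPM in serum, where 4 of the 4 tested rose, and to 38.8 to 39.1 CPM with the miR-138 mimic, against 10.7 to 12.9 CPM in serum, where 3 of 6 rose. In WT cells at day 1 they summed to 4.39 to 4.85 CPM, against 2.17 to 2.52 CPM in serum, where 1 of 4 rose. In DKO-labelled cells at day 1, 0 of the 4 tested rose past the threshold. With the miR-137 mimic and with pUC19 DNA 4 of 6 rose. Dcn alone reached up to 33.4 CPM in experiment 3, where the largest sum was 39.1 CPM. The part of these markers in the lipid genes' rise was not tested, and in bulk RNA fewer cells of a kind cannot be told apart from less RNA per cell.

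DKO-labelled cells in serum differed from WT cells in members of each role. Of 37 members, 17 were higher and 11 lower, against 19.2% and 21.5% of all genes tested, both shares above those of all genes. The roles divided. Of 17 mevalonate and sterol genes 10 were higher and 1 lower, and of 9 fatty acid genes 1 was higher and 7 lower. Of the 28 calls, 19 held in every setting. Those of Acly, Lpcat3, Idi1, Insig1, Srebf2, Nsdhl, Sc5d, Tm7sf2 and Stard4 did not.

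Mylip had the largest difference, with 69.0 and 64.8 CPM in DKO-labelled cells, against 9.8 and 9.9 CPM in WT cells (2.77 ± 0.12, adjusted p = 2.97e-10). It was as clear at day 1, with 49.7 and 56.4 CPM in DKO-labelled cells, against 9.0 and 11.3 CPM in WT cells (2.38 ± 0.13). Hsd17b7, the sterol 3-ketoreductase, was next among those higher, with 85.4 and 91.0 CPM in DKO-labelled cells in serum, against 45.9 and 41.1 CPM in WT cells (1.02 ± 0.08). Msmo1 read 103 and 136 CPM, against 57.1 and 62.3 CPM in WT cells (0.99 ± 0.10), and Fdft1 98.5 and 88.6 CPM, against 60.2 and 60 CPM in WT cells (0.64 ± 0.07). Neither set overlapped. On the other side, Pnpla3 read 1.1 and 0.7 CPM in DKO-labelled cells, against 4.4 and 6.0 CPM in WT cells (-2.48 ± 0.25), and Abca1 3.5 and 1.7 CPM, against 16.7 and 10.9 CPM (-2.36 ± 0.27). Scd2 was lower by 0.87 ± 0.09 on the log2 scale, with 1600 and 1210 CPM in DKO-labelled cells, against 2630 and 2490 CPM in WT cells, and here the 2 DKO-labelled libraries were themselves apart. Fasn depended on them. It read 1930 and 1360 CPM in DKO-labelled cells, against 1640 and 1500 CPM in WT cells (0.07, adjusted p = 0.668), and its log2 fold change was -0.22 without replicate 1 of the DKO-labelled cells and 0.30 without replicate 2, each past the threshold.

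After 1 day without serum the genotypes also differed. In DKO-labelled cells 9 were higher and 5 lower than in WT cells, against 21.9% and 23% of all genes, a share near the background for those higher and under it for those lower, and 9 of the 14 calls held in every setting. With only the 4 compared libraries in the model 24 members were called at day 1 and 23 in serum, so the smaller count at day 1 was not seen with that model. The 9 that held were Mylip, Hsd17b7 (0.91 ± 0.07), Scarb1 (0.70 ± 0.09), Insig1 (0.57 ± 0.09), Npc2 (0.47 ± 0.07), Sc5d (0.43 ± 0.08), Fdps (0.33 ± 0.07), Pmvk (0.32 ± 0.07) and, lower, Dhcr7 (-0.44 ± 0.09). Abca1 and Pnpla3 no longer passed the threshold (adjusted p = 0.0925 and 0.0788).

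The withdrawal response itself differed between genotypes for 12 members, 6 with a larger log2 change in DKO-labelled cells and 6 with a smaller one, against 5.36% and 4.37% of all genes. The 5 that held in every setting were Pnpla3 (2.07 ± 0.31), Abca1 (1.87 ± 0.35) and Scd2 (0.86 ± 0.12), larger in DKO-labelled cells, and Msmo1 (-0.89 ± 0.14) and Fdft1 (-0.79 ± 0.10), smaller. Some of the 12 calls were lost when any 1 of the WT or day-1 DKO-labelled libraries was left out. All 12 were kept, and more members were called, without either serum library of DKO-labelled cells. Each such fit leaves 1 library in a group. CAD markers moved with genotype. Their sum over 12 genes was 1340 to 1370 CPM in DKO-labelled cells at day 1 and 1370 to 1480 CPM in serum, against 5790 to 5860 CPM in WT cells at day 1 and 3230 to 3350 CPM in serum, with 1 marker at 0 in DKO-labelled cells in serum. Chgb alone reached up to 2950 CPM in experiment 1, so the sums follow it closely. Of the 12 markers, 1 was higher and 10 lower in DKO-labelled than in WT cells in serum, and 1 and 9 at day 1. On withdrawal 6 rose and 3 fell in each genotype. Proliferation markers also moved with genotype, with 9 of 10 higher in DKO-labelled cells at day 1 and 7 in serum, and sums of 3300 to 3360 CPM in DKO-labelled cells at day 1 and 4720 to 4860 CPM in serum, against 1920 to 1990 CPM in WT cells at day 1 and 3790 to 3830 CPM in serum. All 10 fell on withdrawal in both genotypes, and by the interaction term the fall was smaller in DKO-labelled cells for 7 of them. The part of these markers in the genotype differences was not tested.

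**Figure D3:**
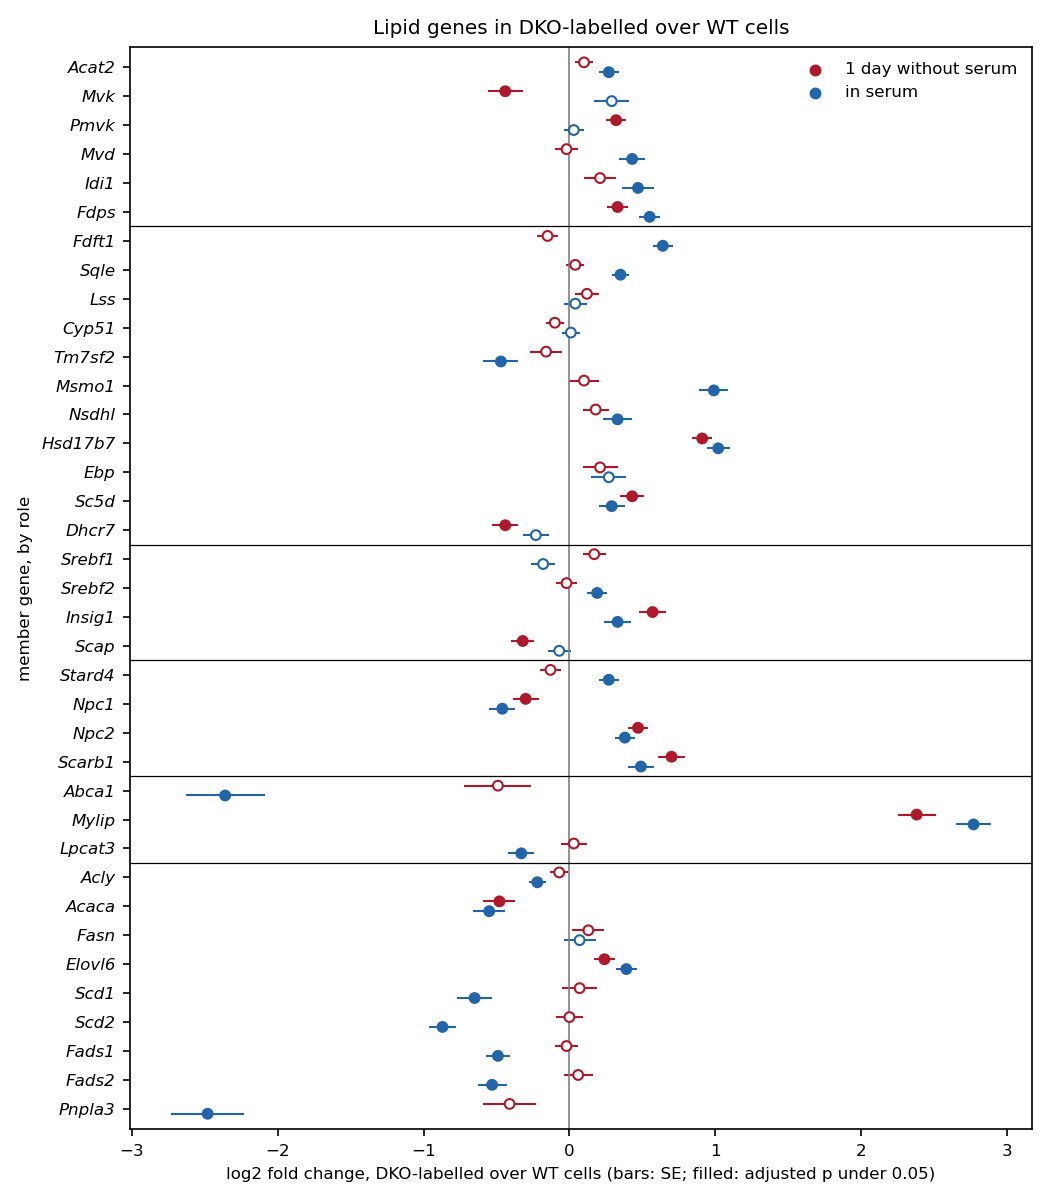
Log2 fold change of DKO-labelled over WT cells (x axis) for 37 member genes (down the page, by role) at 1 day without serum (red) and in serum (blue), with SE bars and filled points where the adjusted p is under 0.05. Mylip lies far right at both times, at 2.38 and 2.77, while Abca1 and Pnpla3 lie left of -2 in serum and near -0.5 at day 1.

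The mimics are short double-stranded RNAs that act as the mature miRNA. The labels name no arm. The RefSeq mature sequences of the usual guide arms are printed to show that their seeds, bases 2 to 8 in capitals, differ.
mmu-miR-138-5p: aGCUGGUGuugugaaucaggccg
mmu-miR-137-3p: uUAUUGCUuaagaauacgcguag

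In the third experiment each mimic was set against pUC19 DNA, a plasmid and not a small RNA, and the 2 mimics share those control libraries. Against cells with no transfection named, pUC19 DNA in serum had 6 members higher and 7 lower, against 10.7% and 15.5% of all genes, a share near the background. Only 3 of these 13 calls held in every setting, Insig1 (0.39 ± 0.08), Acly (-0.38 ± 0.05) and Elovl6 (-0.37 ± 0.06), and the count was 7, 5, 8 and 5 without untransfected replicate 1, untransfected replicate 2, pUC19 replicate 1 and pUC19 replicate 2.

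The miR-138 mimic moved members in both directions. In serum 15 were higher and 9 lower than with pUC19 DNA, against 28.7% and 27.3% of all genes, and without serum 8 were higher and 16 lower, against 30.9% and 31.1%. The share of members was above that of all genes for those higher in serum and those lower without it, near it for those lower in serum and under it for those higher without serum. Of these calls 16 of 24 and 19 of 24 held in every setting. Both SREBP genes were lower at both times. Srebf2 read 430 and 424 CPM with the miR-138 mimic in serum, against 596 and 664 CPM with pUC19 DNA (-0.56 ± 0.06), and 547 and 603 CPM without serum, against 1040 and 1090 CPM (-0.89 ± 0.06). Srebf1 differed by -0.39 ± 0.06 in serum and by -0.75 ± 0.06 without, with 465 and 490 CPM against 807 and 800 CPM with pUC19 DNA.

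The sterol enzymes differed in both directions, and SREBP protein was not measured. With the miR-138 mimic in serum Lss (0.41 ± 0.07), Dhcr7 (0.29 ± 0.05) and Nsdhl (0.28 ± 0.07) were higher and Hsd17b7 (-0.39 ± 0.06) lower. Without serum Cyp51 (-0.57 ± 0.07) and Sqle (-0.38 ± 0.07) were lower, and Cyp51 read 620 and 623 CPM, against 863 and 985 CPM with pUC19 DNA. Mevalonate genes were higher where they differed in a call that held. Pmvk read 321 and 401 CPM without serum, against 170 and 196 CPM with pUC19 DNA (0.98 ± 0.08), and Mvd differed by 0.67 ± 0.09 in serum and 0.41 ± 0.08 without serum, the last ranging from 0.24 without pUC19 replicate 1 to 0.58 without pUC19 replicate 2 of day 2.

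Npc1 was among the members that differed most with the miR-138 mimic. It read 29.6 and 29.5 CPM in serum, against 60.8 and 63.4 CPM with pUC19 DNA (-1.07 ± 0.07), and 34.7 and 32.3 CPM without serum, against 57.7 and 58.5 CPM (-0.79 ± 0.07). Npc1 was also lower with the miR-137 mimic, by 1.36 in serum and 0.60 without. Between the mimics, miR-138 over miR-137, it differed by 0.29 in serum and -0.20 without, in calls that did not hold. Npc2 was higher with the miR-138 mimic than with pUC19 DNA, by 0.35 ± 0.05 and 0.69 ± 0.05. Abca1 was higher too, at 1.35 ± 0.15 in serum and 0.89 ± 0.08 without, as was Mylip, at 0.67 ± 0.06 and 0.53 ± 0.06. Elovl6 was lower at both times, with 66.9 and 67.6 CPM in serum, against 127 and 121 CPM with pUC19 DNA (-0.88 ± 0.06), and -0.82 ± 0.06 without serum. In all, 7 of 9 fatty acid genes were lower without serum in calls that held, among them Pnpla3 (-0.75 ± 0.14) and Fads1 (-0.60 ± 0.05). This was not particular to miR-138, since with the miR-137 mimic 8 of 9 were lower without serum, 6 in calls that held. With the miR-138 mimic in serum 4 were higher and 1, Elovl6, lower, with Scd1 (0.40 ± 0.05) and Acly (0.18 ± 0.05) higher in calls that held.

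With the miR-137 mimic the synthesis genes were lower in serum as a group. Of 37 members 3 were higher and 28 lower than with pUC19 DNA, against 23.1% and 22.5% of all genes, and 16 of 17 mevalonate and sterol genes were lower, 11 of them in calls that held in every setting. Their log2 fold changes were modest. Tm7sf2 read 6.0 and 6.8 CPM, against 11.7 and 12.0 CPM with pUC19 DNA (-0.89 ± 0.19), Cyp51 127 and 122 CPM, against 218 and 210 CPM (-0.78 ± 0.07), and Msmo1 133 and 136 CPM, against 213 and 204 CPM (-0.63 ± 0.06). The groups did not overlap in any of the 3. Insig1 was lower by 0.76 ± 0.08 and Srebf1 by 0.50 ± 0.06, while Srebf2 read 624 and 625 CPM, against 596 and 664 CPM, and did not pass the threshold (-0.01 ± 0.06, adjusted p = 0.884).

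Without serum fewer members differed. There 4 members were higher and 21 lower, against 20.5% and 22.2% of all genes, and 7 of 17 mevalonate and sterol genes were lower, with Mvd (-0.55 ± 0.09) and Cyp51 (-0.49 ± 0.07) in front. Lss (0.01 ± 0.07, adjusted p = 0.953) and Msmo1 (0.07 ± 0.06, adjusted p = 0.363) did not pass the threshold. Srebf2 was higher, by 0.28 ± 0.06. As with the miR-138 mimic, Srebf1 was lower, by 0.59, and Npc2 higher, by 0.52. In serum Npc2 was also higher with the miR-137 mimic, by 0.27, and Elovl6 lower, by 0.51.

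Scarb1 had the largest difference with the miR-137 mimic. It read 15.3 and 20.3 CPM in serum, against 76.4 and 75.5 CPM with pUC19 DNA (-2.10 ± 0.09, adjusted p = 1.51e-12), and 50.1 and 53.5 CPM without serum, against 191 and 173 CPM (-1.81 ± 0.08). Scarb1 still rose on withdrawal with the miR-137 mimic. Npc1 was lower, by 1.36 ± 0.08 in serum and 0.60 ± 0.07 without, and Mylip by 0.67 ± 0.07 and 0.79 ± 0.06. Of the fatty acid genes Scd1 was lower in serum by 0.82 ± 0.05, with 207 and 222 CPM, against 383 and 377 CPM with pUC19 DNA, and Pnpla3 without serum by 1.07 ± 0.15, with 9.5 and 10.3 CPM, against 19.0 and 22.6 CPM.

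**Figure D4:**
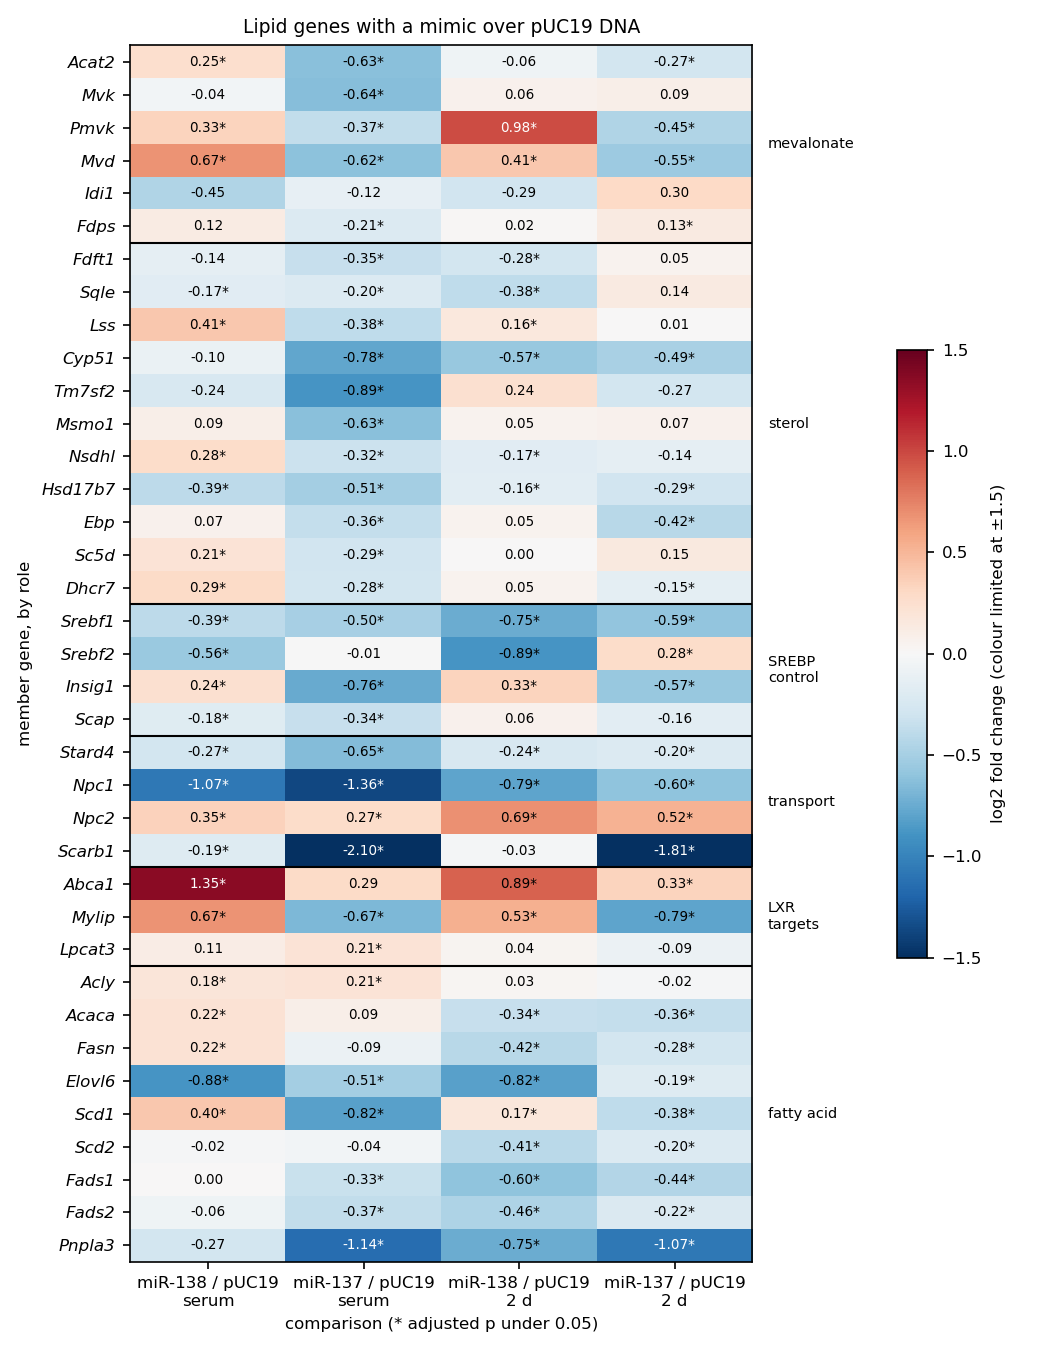
Log2 fold change with each mimic over pUC19 DNA for 37 member genes (down the page, by role) in serum and 2 days without serum (columns), with an asterisk where the adjusted p is under 0.05. Mevalonate and sterol genes are mostly blue with the miR-137 mimic in serum, Scarb1 is deep blue in both miR-137 columns, and Srebf2 is blue in both miR-138 columns.

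Set directly against the miR-137 mimic, the miR-138 mimic gave 26 members higher and 2 lower in serum, against 32.7% and 30.7% of all genes, and 15 higher and 10 lower without serum, against 30.8% and 30.8%. In serum 14 of 17 mevalonate and sterol genes were higher with miR-138, led by Mvd, at 57.5 and 56.4 CPM, against 23.2 and 23.6 CPM with miR-137 (1.28 ± 0.10), and Acat2 (0.88 ± 0.07). Scarb1 (1.91 ± 0.09), Mylip (1.34 ± 0.06), Scd1 (1.23 ± 0.05) and Abca1 (1.06 ± 0.15) were also higher. Srebf2 and Elovl6 were the 2 lower, by 0.55 ± 0.06 and 0.37 ± 0.06. Without serum the gap in Srebf2 was wider, -1.18 ± 0.06, with 547 and 603 CPM against 1330 and 1270 CPM with miR-137, while Pmvk (1.43 ± 0.08), Mvd (0.96 ± 0.09) and Insig1 (0.90 ± 0.07) were higher.

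The response to withdrawal differed with the miR-138 mimic from that with pUC19 DNA in 15 members, 3 larger and 12 smaller, against 13.3% and 14.5% of all genes. Smaller rises included Fasn (-0.63 ± 0.09) and Fads1 (-0.60 ± 0.07), and the rise of Pmvk was larger (0.65 ± 0.12). With the miR-137 mimic it differed in 20, 17 larger and 3 smaller, against 11.9% and 11.4%, led by Npc1 (0.76 ± 0.11), Mvk (0.73 ± 0.19, adjusted p = 0.0746 without miR-137 serum replicate 2) and Msmo1 (0.70 ± 0.08), and 11 of 17 mevalonate and sterol genes were among the larger. The count with miR-137 was 13 without replicate 2 of its 2-day libraries, and 9 of its 20 calls held in every setting, against 11 of 15 with miR-138. Proliferation markers also differed between these groups. Their sum was 1620 to 1900 CPM with miR-138, 2690 to 2780 CPM with miR-137 and 2570 to 3310 CPM with pUC19 DNA without serum, and 2170 to 2250, 4890 to 4940 and 4130 to 4360 CPM in serum. Their part in the lipid results was not tested.

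Srebf2 carries miR-33 in an intron, and this miRNA lowers Abca1 in mouse and human cells. Its arms are printed with bases 2 to 8 in capitals.
mmu-miR-33-5p: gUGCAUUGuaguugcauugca
mmu-miR-33-3p: cAAUGUUUccacagugcaucac

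In the small RNA of WT cells mmu-miR-33-5p read 394, 509 and 451 CPM at day 4, against 432, 171 and 417 CPM in serum, and the groups overlapped (log2 fold change 0.41 ± 0.33 SE, adjusted p = 0.365, where 35.8% of 715 miRNAs passed the threshold in either direction). The value of 171 came from serum replicate 2, which stood apart from the other 2 over all miRNAs, and without it the log2 fold change was 0.06. For mmu-miR-33-3p the levels were 41.7, 55.8 and 48.1 CPM at day 4, against 53.2, 16.6 and 47.1 CPM in serum (0.31 ± 0.44, adjusted p = 0.583), and the log2 fold change was -0.07 without that library. Over the same days Srebf2 mRNA rose by 1.17 ± 0.07 in the polyA libraries of WT cells.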

How the data were processed

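The authors deposited raw counts of each gene, which the submitters' processing notes tie to STAR and mm9, and raw counts of each mature miRNA, for small RNA reads that the same notes tie to cutadapt and BWA. Which annotation and which tool versions were used is not given in the sources used here. Per the labels' protocols, experiments 1 and 2 used stranded dUTP libraries with paired 75 bp reads and experiment 3 stranded single 50 bp reads. The counts of the sense strand (the fourth column) were used, and the other strand held 3.18 to 3.81% of assigned reads. Reads mapping to several places were not counted. Of 37310 identifiers, 87.4% matched a symbol. The protocol gives transfections in duplicate, the design text in triplicate, and 2 libraries a group were analysed.

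Each experiment was fitted with edgeR 4.0.16 (R 4.3.3, limma 3.58.1 and the data.table package at 1.17.8): filterByExpr (minimum count 10, total 15), TMM scaling, the two-sided quasi-likelihood test over all groups, and Benjamini-Hochberg adjustment over all genes at 0.05. Genes tested numbered 13630, 13283 and 12655 in experiments 1 to 3, and 715 miRNAs. There were 18 RNA comparisons, 3 of them interactions. SE is the log2 fold change divided by the root of F. Small RNA depth was 1423978 to 2763553 reads per library. Alternatives were RLE scaling, DESeq2 1.42.0, no filter, unstranded counts, the compared libraries alone, a replicate block and each library of the compared groups left out. A call is said to hold when it passed in all that apply. The fits were tested on simulated data with known changes, where the share of false calls ran above the nominal rate in the designs of experiments 1 and 2. Figures were drawn with matplotlib 3.10.9 from Python 3.11.15 and pandas 2.3.3.

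All 39 listed genes are named; in each comparison the members past the threshold with the largest change of their role come first, and up to 3 genes of a wider list by adjusted p. The members and all lists were chosen with earlier results of these data known. Some genes of these pathways are not reported here.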

Additional observations from a re-analysis of the deposited data

Results flagged for a closer look

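The change on serum withdrawal differed between groups, by an interaction term in edgeR at an adjusted p under 0.05, for 47 pairs of a member and a contrast. Values are differences of log2 fold changes. Many groups have 2 libraries, too few for a test of single outlying samples.

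Between DKO-labelled and WT cells at day 1, the change was larger in DKO-labelled cells for Pnpla3 (2.07), Abca1 (1.87), Scd2 (0.86), Scd1 (0.72), Fads2 (0.59) and Fads1 (0.47). It was smaller for Msmo1 (-0.89), Fdft1 (-0.79), Mvk (-0.73), Mvd (-0.45), Stard4 (-0.40) and Sqle (-0.32).

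Between the miR-137 mimic and pUC19 DNA at day 2, it was larger with the mimic for Npc1 (0.76), Mvk (0.73), Msmo1 (0.70), Tm7sf2 (0.62), Stard4 (0.45), Sc5d (0.44), Scd1 (0.44), Fdft1 (0.40), Lss (0.39), Acat2 (0.36), Fdps (0.34), Sqle (0.33), Elovl6 (0.32), Srebf2 (0.30), Cyp51 (0.29), Npc2 (0.26) and Hsd17b7 (0.23). It was smaller for Acaca (-0.45), Lpcat3 (-0.31) and Acly (-0.23).

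Between the miR-138 mimic and pUC19 DNA at day 2, it was larger with the mimic for Pmvk (0.65), Npc2 (0.35) and Hsd17b7 (0.23). It was smaller for Fasn (-0.63), Fads1 (-0.60), Acaca (-0.56), Cyp51 (-0.47), Nsdhl (-0.45), Fads2 (-0.39), Scd2 (-0.39), Srebf1 (-0.36), Srebf2 (-0.33), Acat2 (-0.31), Dhcr7 (-0.24) and Scd1 (-0.24). Both mimic contrasts share the pUC19 libraries.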

How the results depend on the processing

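No called member changed direction under any alternative run. Fasn, not called between DKO-labelled and WT cells in serum (0.067), was -0.217 and called without replicate 1 of the DKO-labelled serum libraries, and 0.301 and called without replicate 2. Of 4866 checks of a called member under an alternative, 4539 kept the call and 327 lost it, 265 of these when 1 library was left out. With the compared libraries alone, 24 members were called between DKO-labelled and WT cells at day 1, against 14. Leaving out 1 library moved the count of members called from 12 to between 5 and 21 for the genotype by withdrawal term, from 20 to between 13 and 20 for the miR-137 by withdrawal term, and from 13 to between 5 and 8 for pUC19 DNA against no named transfection. Over all genes these ranges were 615 to 2602 for the genotype term and 1730 to 2764 for pUC19 DNA, and 154 to 399 miRNAs at day 4. Replicate numbers gave no clear sign of pairing. Correlations of same-numbered deviations were 0.025 to 0.089, -0.014 to 0.034 and -0.358 to 0.232 in experiments 1 to 3, and -0.38 to 0.103 in small RNA. In experiment 3, 14 of 42 were above 0.1, and with 2 libraries a group both replicate numbers give the same value. With a replicate block 466 of 466 member calls were kept, which does not show that pairing is absent. Genes under about 5 CPM, such as Idi1 and Pnpla3 in serum in experiment 3, rest on few reads.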
